A study of Mus musculus with 11 samples.

Results

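The sine oculis homeobox and Eya transcription regulators, with their partner Dach1, were followed as 8 genes, Six2, Six4, Six5, Eya1, Eya2, Eya3, Eya4 and Dach1, chosen by symbol from the 24062 genes listed for each library. RNA-seq had been performed on primary mesenchymal cells from embryonic day (E) 15 mouse lungs, in 4 libraries labelled Sp3+/+ (WT), 4 labelled Sp3+/- and 3 labelled Sp3-/-. The cells of every genotype were obtained by rapid adhesion to culture plastic and passaged in culture, with no treatment named in the labels (every title holds CTRL), and the mutant allele is carried by every cell of the embryo. Strain is not given in the labels, and the study's methods also describe cells with a temperature-sensitive SV40 T antigen allele, which the labels of these libraries do not name. Nothing in the labels says that the libraries of a genotype came from separate embryos, so the p-values measure the spread between these libraries.

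Sine oculis homeobox proteins, such as Six2, are homeodomain transcription factors. Eya proteins do not bind DNA themselves but join them as coactivators and carry a protein tyrosine phosphatase, and Dach1 is a corepressor that works with the same complex. This network was first worked out in the fly eye, and in mice it directs kidney, ear, muscle and craniofacial development, with Eya1 also needed for normal branching of the embryonic lung. Sp3 is a zinc finger transcription factor that binds GC boxes. The comparison of genotypes asks which of these regulators differed with Sp3 genotype in lung mesenchymal cells.

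Between 9849111 and 59297495 reads were counted on genes per library. Sp3 itself, the targeted gene, was 4.93-fold lower in Sp3-/- than in WT cells (log2 fold change -2.3, SE 0.21, adjusted p = 0.00611, edgeR quasi-likelihood test), and no Sp3-/- library overlapped a WT library. In Sp3+/- cells it was 1.4-fold lower than in WT (log2 fold change -0.49, SE 0.16, 95% interval -0.85 to -0.13). The libraries of these genotypes overlapped, and Sp3 did not pass the test between them after adjustment. The title of a library starts with a number (468, 685 or 697), and some titles close with a suffix of 2 or 3. The sources used here explain neither. All 3 Sp3-/- libraries have no suffix, and only WT 468-4 and Sp3+/- 697-4 share that with them, so genotype and suffix were nearly confounded. The name of the file of 697-4 carries the suffix 2, against its title. The summed level of 7 macrophage markers was 2780 to 10400 CPM (reads of a gene scaled to a common library total) in Sp3-/- libraries, 540 to 2880 CPM in WT and 326 to 2790 CPM in Sp3+/-. The highest WT and Sp3+/- sums were those of the libraries without a suffix, 468-4 (2880 CPM) and 697-4 (2790 CPM). Both lay just above Sp3-/- 685-1 (2780 CPM). The other WT libraries stood at 540 to 816 CPM and the other Sp3+/- libraries at 326 to 607 CPM. Summed mesothelial markers (6 genes) stood at 2110 to 5970 CPM in Sp3-/- and 734 to 1720 CPM in WT, epithelial markers (6 genes) at 46.3 to 151 CPM against 14.5 to 33.5 CPM, and endothelial markers (8 genes) at 68 to 120 CPM against 34.1 to 94.7 CPM. Krt18 and Krt8 made up most of the epithelial sum. Between Sp3-/- and WT, 4 epithelial genes had a positive and 2 (Nkx2-1 and Sftpc) a negative log2 fold change. Of the endothelial genes, 4 were positive and 4 negative, so these sums do not speak for every marker. Mesenchymal markers such as Col1a1 and Vim (8 genes) summed to 6980 to 19000 CPM in Sp3-/- and 12800 to 21500 CPM in WT. Skeletal muscle markers (9 genes) summed to 23.9 to 51.6 CPM in Sp3-/- and 69.3 to 325 CPM in WT, with Myod1 at 0 in every library of both genotypes. Acta1 made up most of this sum, at 20.1 to 49.6 CPM in Sp3-/- and 66.8 to 322 CPM in WT. Of the 4 muscle genes tested between them, 3 had a negative and 1 (Chrna1) a positive log2 fold change. None of the 4 had an adjusted p below 0.05 by edgeR. Neural crest and glial markers (6 genes) summed to 12 to 37.9 CPM in Sp3-/- and 12 to 92.6 CPM in WT. In Sp3+/- libraries these sums were 1440 to 2530 CPM for mesothelial, 21.1 to 31.5 for epithelial, 39.2 to 75 for endothelial, 14600 to 21800 for mesenchymal, 119 to 215 for skeletal muscle and 9.39 to 16.6 CPM for neural crest and glial markers. The part of these differences in the results for the members was not tested, and in bulk libraries fewer cells of a type and less RNA per cell cannot be told apart.

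The promoters of Six2 and Eya3 are shown because GC boxes are the element Sp3 is known to bind and because these members passed the threshold between Sp3-/- and Sp3+/- cells. Six2 could be tested only through Sp3+/- libraries in which it was high, so its difference is a description. Each is the 250 bases before a RefSeq transcript start on GRCm38.p6, 5′ to 3′ on the strand of the gene, with every GC box (GGGCGG, or its reverse complement CCGCCC) in capitals. The Six2 window lies at chr17:85688255-85688504 on the minus strand and the Eya3 window at chr4:132638796-132639045 on the plus strand.
Six2: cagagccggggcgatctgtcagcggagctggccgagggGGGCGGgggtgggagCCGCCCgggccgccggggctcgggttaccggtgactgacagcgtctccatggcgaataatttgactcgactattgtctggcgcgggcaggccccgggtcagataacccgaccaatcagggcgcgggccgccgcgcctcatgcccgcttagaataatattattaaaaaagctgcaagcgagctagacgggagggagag
Eya3: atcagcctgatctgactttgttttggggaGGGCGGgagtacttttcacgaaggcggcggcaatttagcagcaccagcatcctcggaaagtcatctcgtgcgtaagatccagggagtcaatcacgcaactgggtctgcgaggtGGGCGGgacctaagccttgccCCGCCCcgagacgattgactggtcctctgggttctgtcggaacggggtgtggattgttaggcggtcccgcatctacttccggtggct
Six2 held 2 GC boxes in this window and Eya3 held 3. Six4 (at each of 2 listed starts), Six5 and Eya4 (at each of 2 listed starts) held 1, and Dach1 held 0. The 2 Six4 windows overlap and share the same GC box, as do the 2 Eya4 windows. The windows of Six4 and Eya4 lie inside the spans of these genes given below, and the bases upstream of those spans were not searched. By the same search on both strands, 32.7% of 32851 mouse promoters had at least 1 GC box. The MEF3 element (TCAGGTT, also searched on both strands), by which sine oculis homeobox proteins are known to bind muscle promoters, occurred in 1 of the 2 Six4 windows, in no window of another member, and in 3.49% of all promoters. The members lie apart in the genome. On GRCm38.p6, Six2 spans chr17:85662736-85688254, Six4 chr12:73099609-73114031, Six5 chr7:19094544-19098549, Eya1 chr1:14168953-14311035, Eya2 chr2:165595028-165771727, Eya3 chr4:132639025-132724765, Eya4 chr10:23102962-23350838 and Dach1 chr14:97786846-98169765.

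Eya3 was the most abundant member per length in WT cells and Eya2 the least. Divided by the length of the canonical transcript, Eya3 stood at 12.5 ± 0.791 CPM per kb (SD, n = 4) in WT, followed by Six5 at 7.5 ± 2.35, Eya4 at 3.14 ± 1.76, Eya1 at 2.45 ± 0.212 and Six4 at 1.67 ± 0.539 CPM per kb. Dach1 (0.37 ± 0.221), Six2 (0.196 ± 0.0714) and Eya2 (0.0287 ± 0.00891 CPM per kb) were lower. The ranges of neighbours in this order overlapped for Six5 and Eya4, Eya4 and Eya1, Eya1 and Six4, and Dach1 and Six2. They did not overlap for Eya3 (11.5 to 13.4 CPM per kb) and Six5 (4.36 to 9.44), for Six4 (1.15 to 2.24) and Dach1 (0.121 to 0.643), or for Six2 (0.0949 to 0.262) and Eya2 (0.0165 to 0.0362). In Sp3-/- cells Eya3 again led, at 15.8 ± 1.25 CPM per kb (SD, n = 3), and Eya2 was again last at 0.0722 ± 0.0148. In Sp3+/- cells Six2 averaged 0.754 ± 0.411 CPM per kb (SD, n = 4), above Dach1 at 0.452 ± 0.108, with overlapping ranges.

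**Figure D1:**
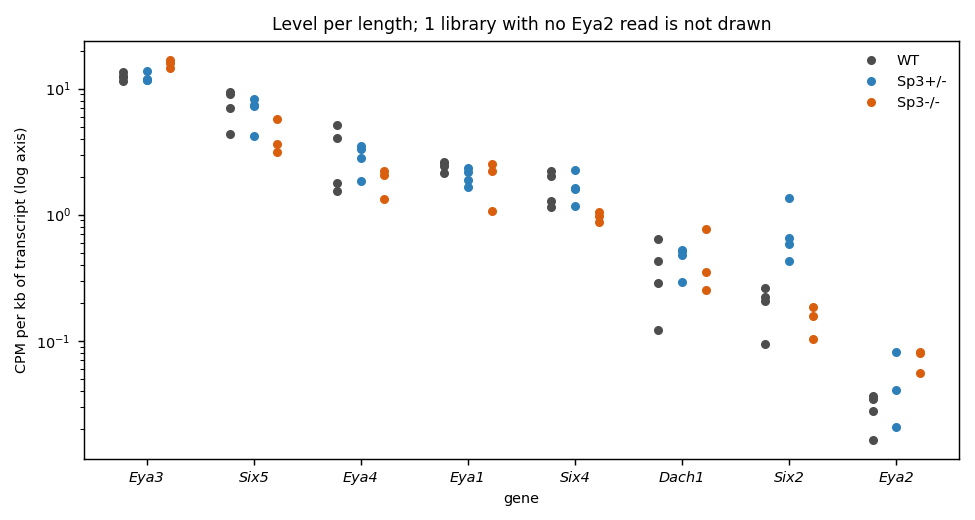
Level of each gene per library in CPM per kb of canonical transcript (log axis), ordered by the WT mean, with 1 point per library coloured by genotype. Eya3 lies highest in every genotype and Eya2 lowest, and the 4 Sp3+/- points of Six2 lie above those of the other genotypes.

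Values for single libraries are given as log2 CPM, in the order 468-4, 685-2, 697-1 and 697-3 for WT, 468-3, 685-5, 685-7 and 697-4 for Sp3+/-, and 685-1, 697-2 and 697-5 for Sp3-/-. A gene entered the edgeR test if any library of the fit exceeded 1 CPM, and it is called at a Benjamini-Hochberg adjusted p below 0.05 over all genes tested. Against WT, 18.5% of 14025 genes were called in Sp3-/- cells (8.76% higher and 9.77% lower), and the libraries of the genotypes did not overlap for 31.3%. Of the members, 6 were tested in this comparison, 0 were called, and 2 (Six4 and Eya3) had libraries that did not overlap. At an unadjusted p below 0.05, Six4, Six5 and Eya3 passed, as did 37.6% of all genes. DESeq2 called the same 3 members and 30.6% of all genes, and limma-voom with a consensus correlation called Eya3 and 21.6% of all genes. The median log2 fold change of the 6 members was -0.54, beside a median of 0 over all genes. Between Sp3-/- and Sp3+/- cells, 25.5% of 14130 genes were called (13.0% higher and 12.5% lower in Sp3-/-), with no overlap for 34.0%. There, 7 members were tested, and Eya3 was called higher and Six2 lower in Sp3-/-. Six2 entered the test only through Sp3+/- libraries in which it was high, so its call is a description. The median of the members, Six2 included, was -0.62, beside a median of 0 over all genes. Between Sp3+/- and WT cells, 0% of 14130 genes were called by edgeR, by DESeq2 or by limma-voom, 246 genes had an unadjusted p below 0.05, and 1.39% had libraries that did not overlap. Among the 7 members tested there, only Six2, which was tested through its Sp3+/- libraries, had an unadjusted p below 0.05 and no overlap.

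**Figure D2:**
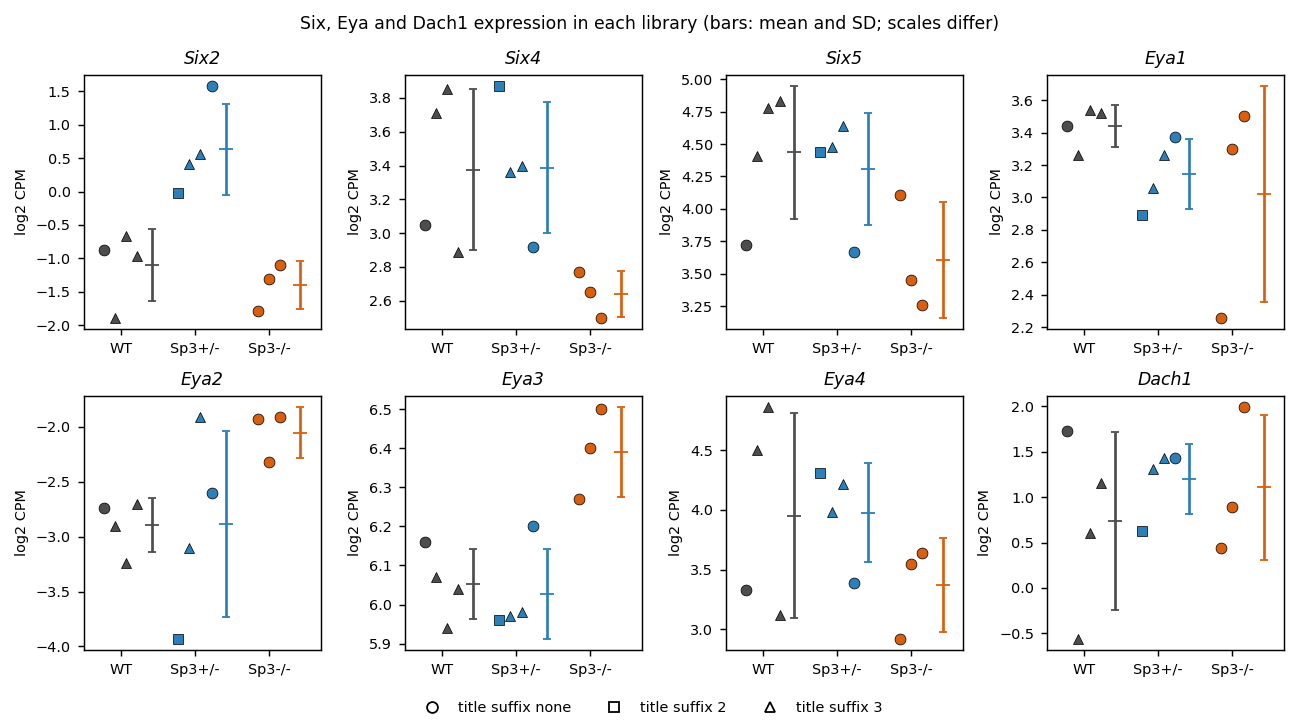
Expression of the 8 genes in each library (log2 CPM, a separate scale for each gene), by genotype, with marker shape for the title suffix and the mean and SD beside each group. The 4 Sp3+/- libraries lie above all others for Six2, and the 3 Sp3-/- libraries lie below all others for Six4 and above all others for Eya3.

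Six2, known for keeping nephron progenitors of the kidney undifferentiated, was higher in Sp3+/- libraries than in both other genotypes. Its read counts were 17, 3, 14 and 15 in WT, 13, 74, 63 and 59 in Sp3+/-, and 8, 15 and 4 in Sp3-/-. On the log2 CPM scale these were -0.88, -1.89, -0.66 and -0.97 in WT, -0.02, 0.41, 0.56 and 1.58 in Sp3+/-, and -1.79, -1.31 and -1.1 in Sp3-/-. Every Sp3+/- library exceeded every WT and Sp3-/- library, and the WT and Sp3-/- libraries overlapped. Six2 was 5.26-fold lower in Sp3-/- than in Sp3+/- cells (log2 fold change -2.4, SE 0.49, 95% interval -3.48 to -1.31, adjusted p = 0.00889). Against WT it was 3.69-fold higher in Sp3+/- cells (log2 fold change 1.88, SE 0.42, 95% interval 0.96 to 2.81), with an edgeR p of 0.000972 before and an adjusted p of 1 after adjustment over all genes. Six2 reached 1 CPM in the Sp3+/- libraries 685-5, 685-7 and 697-4 alone and passed the filter on low values through them, so a difference from the other genotypes was built into its being tested, and its p-values and folds are given as descriptions. Without that filter, the log2 fold change from WT to Sp3-/- was -0.51 (SE 0.47, adjusted p = 0.497).

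By first label number, the difference in mean Six2 log2 CPM between Sp3+/- and WT libraries was 0.86 among libraries numbered 468, 2.37 among those numbered 685 and 2.4 among those numbered 697, with 1 or 2 libraries a genotype in each. These are the same libraries through which the gene was tested. Among libraries with the suffix 3 it was 1.66 (2 Sp3+/- and 3 WT libraries). Between Sp3-/- and Sp3+/- the log2 fold change was -2.57 to -1.97 with each library left out in turn and -2.99 with the suffix as a covariate. With 697-4 given the suffix 2 in that fit, the value was -2.28 and the adjusted p 0.572. That fit holds no Sp3+/- library with the suffix of the Sp3-/- libraries, and Sp3 itself was not called in it either (-2.11, adjusted p = 0.133).

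Eya3, an Eya phosphatase known to be broadly expressed and to act on the histone variant H2AX after DNA damage, was slightly higher in Sp3-/- cells. Its log2 CPM was 6.16, 6.07, 5.94 and 6.04 in WT, 5.96, 5.97, 5.98 and 6.2 in Sp3+/-, and 6.27, 6.4 and 6.5 in Sp3-/-. The Sp3-/- libraries lay above all 8 others, and the nearest were the libraries without a suffix, WT 468-4 and Sp3+/- 697-4. Against Sp3+/-, Eya3 was 1.28-fold higher in Sp3-/- cells (log2 fold change 0.36, SE 0.09, 95% interval 0.15 to 0.56, adjusted p = 0.0204). Against WT the difference was 1.26-fold (0.33, SE 0.1, 95% interval 0.11 to 0.56) and missed the threshold at an adjusted p of 0.051. The value against Sp3+/- was 0.22 with the suffix as a covariate (adjusted p = 0.21), and the call was lost without any one of 685-5, 685-7, 697-2 or 697-5 (range 0.29 to 0.42 over all libraries left out in turn). Between Sp3+/- and WT cells the difference was -0.03 (95% interval -0.22 to 0.16).

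Six4, which acts in muscle and kidney development, was lower in each Sp3-/- library than in any other, without passing the test. Its log2 CPM was 3.05, 3.71, 3.85 and 2.89 in WT, 3.87, 3.36, 3.4 and 2.92 in Sp3+/-, and 2.77, 2.65 and 2.5 in Sp3-/-. The gap between the genotypes was small beside the spread of the WT libraries, of which 468-4 and 697-3 lay close to Sp3-/-. Against WT the log2 fold change was -0.79 (SE 0.27, 95% interval -1.42 to -0.15, adjusted p = 0.078) and against Sp3+/- it was -0.78 (SE 0.28, adjusted p = 0.063). Among libraries numbered 685 the difference in mean log2 CPM between Sp3-/- and WT was -0.94, among those numbered 697 it was -0.79, and among those without a suffix it was -0.4. Sp3+/- and WT cells differed by -0.01 (95% interval -0.57 to 0.54). Six4 shares 1847 bases with Mnat1, a neighbouring gene also listed in the files, and the strand setting of the counting is not given in the sources used here, so reads of the shared stretch may be assigned to either or to none.

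Six5, which lies beside Dmpk at the locus of the myotonic dystrophy repeat, had overlapping levels in the 3 genotypes. Its log2 CPM was 3.72, 4.41, 4.78 and 4.83 in WT, 4.44, 4.48, 4.64 and 3.67 in Sp3+/-, and 4.11, 3.45 and 3.26 in Sp3-/-. The lowest WT and the lowest Sp3+/- library were those without a suffix, and both lay below Sp3-/- 685-1. The log2 fold change in Sp3-/- cells was -0.85 against WT (SE 0.31, 95% interval -1.58 to -0.11, adjusted p = 0.0942) and -0.7 against Sp3+/- (SE 0.31, adjusted p = 0.125). With the suffix as a covariate the value against WT was -0.1 (adjusted p = 0.834), and among libraries without a suffix it was -0.07. With the first label number as a block it was -1.07 (adjusted p = 0.0246, with 4031 of 14025 genes called). Among the 4 libraries numbered 697 it was -1.44 (adjusted p = 0.00465, with 2917 of 13832 genes called). Of the libraries numbered 685 or 697, every WT library had the suffix 3 and every Sp3-/- library had none. WT 468-4, without a suffix, was alone in its block, so neither fit can tell genotype from suffix. Six5 overlaps Bhmg1 by 279 bases on the reference annotation.

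Eya1, the Eya gene most often tied to kidney, ear and lung development, did not pass the test in any comparison. Its log2 CPM was 3.44, 3.26, 3.54 and 3.52 in WT, 2.89, 3.06, 3.26 and 3.37 in Sp3+/-, and 2.26, 3.3 and 3.5 in Sp3-/-. The Sp3-/- libraries overlapped both other groups, with only 685-1 below them. The log2 fold change in Sp3-/- cells was -0.34 against WT (SE 0.29, 95% interval -1.03 to 0.34, adjusted p = 0.425) and -0.06 against Sp3+/- (SE 0.25, adjusted p = 0.884).

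Eya4, mutated in forms of inherited deafness, varied as much among WT libraries as between genotypes. Its log2 CPM was 3.33, 4.5, 4.86 and 3.12 in WT, 4.31, 3.98, 4.22 and 3.39 in Sp3+/-, and 2.92, 3.55 and 3.64 in Sp3-/-. The WT libraries 468-4 and 697-3 and the Sp3+/- library 697-4 lay within the range of Sp3-/-. The log2 fold change in Sp3-/- cells was -0.75 against WT (SE 0.47, 95% interval -1.84 to 0.35, adjusted p = 0.283), and it was -0.06 with the suffix as a covariate and 0.05 among libraries without a suffix. Against Sp3+/- it was -0.62 (SE 0.42, adjusted p = 0.299).

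Dach1, the corepressor of the group, had the widest spread among members with a mean above 1 log2 CPM (SD 0.71 over the 11 libraries). Its log2 CPM was 1.73, -0.56, 0.61 and 1.16 in WT, 0.63, 1.31, 1.43 and 1.43 in Sp3+/-, and 0.44, 0.89 and 1.99 in Sp3-/-. The 3 genotypes overlapped throughout. The log2 fold change in Sp3-/- cells was 0.24 against WT (SE 0.59, 95% interval -1.15 to 1.62, adjusted p = 0.801), and its sign turned to -0.25 with the suffix as a covariate.

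Eya2, an Eya coactivator known from muscle, was near the limit of detection in every genotype. It had 3, 1, 1 and 3 reads in WT, 0, 3, 9 and 2 in Sp3+/-, and 7, 6 and 2 in Sp3-/-. Summed over libraries this was 0.0733 CPM in WT (95% exact Poisson interval 0.0317 to 0.145), 0.101 in Sp3+/- (0.0551 to 0.169) and 0.166 in Sp3-/- (0.0927 to 0.273), intervals that cover counting error only. Eya2 did not pass the filter on low values, and without the filter its log2 fold change from WT to Sp3-/- was 1.17 (SE 0.57, adjusted p = 0.218). The 3 Sp3-/- libraries (0.135 to 0.2 CPM) lay above the 4 WT libraries (0.0404 to 0.0889 CPM) and within the range of the Sp3+/- libraries (0 to 0.201 CPM), at no more than 9 reads in any library.

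**Figure D3:**
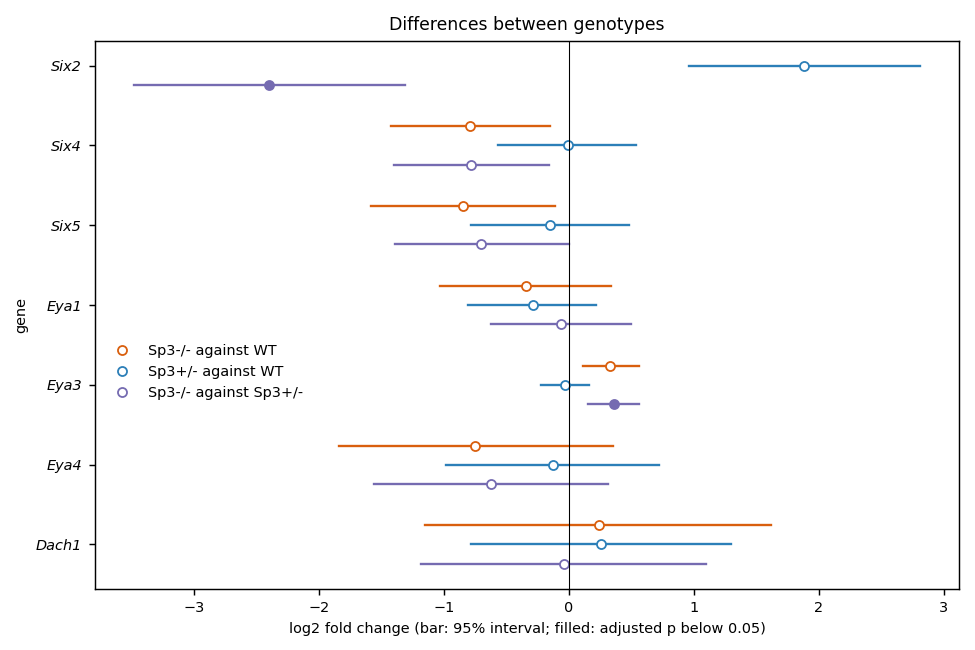
Log2 fold change with its 95% interval for the members tested in the 3 comparisons of genotypes, with filled points at an adjusted p below 0.05. Filled points are those of Six2 and Eya3 for Sp3-/- against Sp3+/-. Six2 was tested only through its Sp3+/- libraries.

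Among 5 further relatives (Six3, Six6, Dach2, Ski and Skil), 3 were tested against WT and 0 were called by edgeR, none of them at an unadjusted p below 0.05, with a median log2 fold change of -0.23. Of these, limma-voom with a consensus correlation called Dach2 lower (-1.46, adjusted p = 0.0272). Dach2 did not pass the test between Sp3-/- and WT cells (log2 fold change -1.01, SE 0.47, adjusted p = 0.159) and was called lower against Sp3+/- (-1.31, SE 0.43, adjusted p = 0.0486), a call kept in 2 of 11 fits with a library left out. The Ski family corepressors Ski (-0.23, adjusted p = 0.211) and Skil (-0.1, adjusted p = 0.616) did not pass the test against WT. Six3 and Six6, known from the eye and forebrain, had at most 10 reads in any library and were not tested.

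Of 12 Pax, Sall and Osr genes, which act upstream of or beside the members in other organs, 5 were tested against WT and 2 were called, both lower in Sp3-/-, where 9.77% of all genes were called lower. Osr1, a zinc finger factor of early lung and kidney mesoderm, fell 3.64-fold (log2 fold change -1.86, SE 0.39, adjusted p = 0.0232). Pax9, known from pharyngeal pouches and limbs, had 14 to 41 reads in WT libraries and at most 1 in Sp3-/- libraries (adjusted p = 0.0221). Among the 7 libraries it exceeded 1 CPM only in WT 685-2 and 697-1. A difference was thus built into its being tested, and its p-values here and below are given as descriptions. The ratio of its summed reads, each divided by all reads counted, Sp3-/- over WT, was 0.0221 with a 95% exact binomial interval of 0.00264 to 0.0817. This interval covers counting error only and leaves out the spread between libraries.

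All 14 genes of the list of cofactors and substrates were tested, and 2 were called lower and 0 higher in Sp3-/- against WT, with a median log2 fold change of -0.23, beside 9.77% lower and 8.76% higher among all genes. The share of the list called was below the 18.5% of all genes. Both genes called encode Groucho family corepressors, which sine oculis homeobox proteins are known to recruit. Tle2 fell 3.06-fold (log2 fold change -1.61, SE 0.31, adjusted p = 0.0183) and Tle1 fell 1.96-fold (-0.97, SE 0.15, adjusted p = 0.0121). Their relatives Tle3 (-0.04, adjusted p = 0.895), Tle4 (0.06, adjusted p = 0.778) and Aes (-0.33, adjusted p = 0.0783) did not pass the test. Against Sp3+/-, where 25.5% of all genes were called, Aes was called lower in Sp3-/- (-0.33, adjusted p = 0.032).

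Of 13 genes known as targets of sine oculis homeobox and Eya proteins in other tissues, 9 were tested against WT, 1 was called higher and 2 lower, with a median log2 fold change of -0.04, beside 8.76% higher and 9.77% lower among all genes. Fgf10, the mesenchymal growth factor that drives lung branching, fell 5.82-fold (log2 fold change -2.54, SE 0.62, adjusted p = 0.0329) but was not called by limma-voom with a consensus correlation (-2.25, adjusted p = 0.108). Its libraries overlapped, with WT 697-3 (6.97 CPM) below Sp3-/- 697-5 (7.51 CPM) and the other WT libraries at 38.3 to 43 CPM. Ezr, which links the plasma membrane to actin, rose 2.93-fold (log2 fold change 1.55, SE 0.33, adjusted p = 0.0239). Myc, a growth regulator, fell 1.56-fold (-0.64, SE 0.15, adjusted p = 0.0317). With the suffix as a covariate, Osr1 (-0.81, adjusted p = 0.0578), Pax9 (adjusted p = 0.0572), Fgf10 (-2.43, adjusted p = 0.0614) and Ezr (1.31, adjusted p = 0.0882) missed the threshold. Over the 7 fits that left out 1 library, Tle1 was called in 6, Tle2 in 5, Pax9 and Ezr in 3, and Osr1, Fgf10 and Myc in 2, each with its sign unchanged, and the highest adjusted p of each came without Sp3-/- 697-2. Between Sp3+/- and WT cells none of the 4 lists had a called gene by edgeR.

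Genes flanking the members were taken from the reference annotation, the nearest protein-coding gene on each side that does not overlap the member. Mnat1, which overlaps Six4, and Bhmg1, which overlaps Six5, were thus passed over. Of 15 such neighbours examined, 11 were tested against WT. Of these, 3 were called lower and 1 higher in Sp3-/-, beside 9.77% lower and 8.76% higher among all genes. Dmpk, a kinase gene lying 723 bases from Six5, fell by 2.05 on the log2 scale (SE 0.36, adjusted p = 0.0153). Xkr8, a phospholipid scramblase gene 136 bases from Eya3, fell by 0.54 (SE 0.13, adjusted p = 0.0303), against the higher Eya3. The glucose transporter family gene Slc2a10, 75111 bases from Eya2, fell by 0.86 (SE 0.12, adjusted p = 0.01), and Ptafr, the receptor for platelet-activating factor, 56342 bases from Eya3, rose by 2.64 (SE 0.76, adjusted p = 0.0494).

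The members differed in how they varied over the 11 libraries, given here as descriptions over libraries that share genotype and suffix. Eya3 had the smallest SD (0.19 log2 CPM) and Six2 the largest (1.07). Pearson's r was 0.843 between Six4 and Eya4 and 0.708 between Six4 and Six5, and it was -0.902 between Eya3 and Six5 and -0.848 between Eya3 and Six4. Among 11204 genes with a mean above 2 log2 CPM, those most like Six5 were Mtus1 (r = 0.979), Zfp821 (0.97) and Rnf145 (0.967). Those most like Eya4 were Slc7a2 (0.943), Clmp (0.924) and Aldh1l1 (0.923), and those most like Dach1 were Dusp12 (0.94), Hist1h2bc (0.911) and Mfap3l (0.897).

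**Figure D4:**
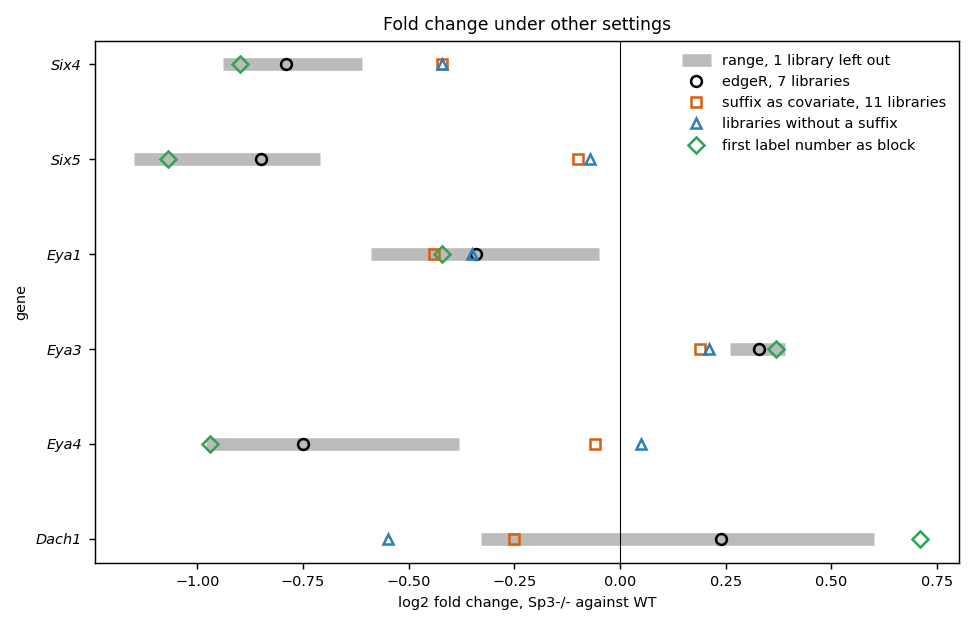
Log2 fold change in Sp3-/- against WT for the 6 members tested, from the 7 libraries, with the suffix as a covariate, among libraries without a suffix, with the first label number as a block, and as the range with each library left out. Six5 and Eya4 lie near 0 in the 2 settings that hold the suffix.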

How the data were processed

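Total RNA from cultured E15 lung mesenchymal cells was sequenced by the authors as 50 bp single end reads from TruSeq libraries. Per the labels, reads were checked with FastQC 0.10.1, aligned with STAR 2.4.5a to mm10 and counted per gene with HTSeq. The deposited values are raw counts per gene symbol, with no normalization, for 4 WT, 4 Sp3+/- and 3 Sp3-/- libraries. Genotypes were taken from the labels. The 5 tallies of reads assigned to no gene (38.4% to 40.9% of each library) were left out. No pair of libraries of a genotype agreed within counting noise (lowest chi-square per degree of freedom 15.8).

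Any gene exceeding 1 CPM in 1 or more of the libraries compared entered the test, made in R 4.3.3 with edgeR 4.0.16 (TMM, robust quasi-likelihood test, Benjamini-Hochberg adjustment). Sp3-/- against WT used the 7 libraries of these genotypes, and the other comparisons all 11. The study's methods describe limma-voom, so limma 3.58.1 was an alternative, its consensus correlation taken over libraries sharing a first label number, as was DESeq2 1.42.0. For log2 CPM, TMM was run on the 11 libraries together, with a prior count of 2. Standard errors were derived from the F statistic, and intervals are at the 95% level. The pipeline was tested on simulated data. Promoters and coordinates are those of RefSeq on GRCm38.p6, which matches mm10. Promoters were listed for 6 of the 8 members. Lengths come from GENCODE M39 on GRCm39. The members, gene lists, and the rule for named genes (all members, the other family genes, up to 3 called genes of each list with the largest change against WT, the neighbours and, for the 3 most variable members with a mean above 1 log2 CPM, the 3 genes most like each) were chosen with earlier results of these data known. Muc16 and Adgre1 were not analysed here, and 1 gene is not reported.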

Additional observations from a re-analysis of the deposited data

Results flagged for a closer look

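Each group of 4 libraries of each member was examined for a library far from the rest, 16 groups in all, of which 2 held one, and chance alone gives such a library now and then. For Eya3, Sp3+/- 697-4 stood at 6.2 log2 CPM against 5.96 to 5.98 in the other Sp3+/- libraries, a gap of 0.912 of the range of the group. This is the only Sp3+/- library without a title suffix. For Dach1, Sp3+/- 468-3 stood at 0.63 log2 CPM against 1.31 to 1.43, a gap of 0.84 of the range, and it is the only library with the suffix 2 in its title. Whether the suffix has a part in either value was not tested.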

How the results depend on the processing

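Between Sp3+/- and WT, 0 members were called under every alternative run. Against WT, the number of members called in Sp3-/- rose from 0 to 3 with DESeq2 (Six4, adjusted p = 0.0361, Six5, 0.0412, and Eya3, 0.0152, with 4297 of 14025 genes called). It was 1 with limma-voom and a consensus correlation (Eya3, 0.0484, with 3033 of 14025 genes called). All 11 libraries in a single fit also gave 1 (Eya3, 0.0262, with 3977 of 14130 genes called). So did the first label number as a block (Six5, 0.0246, with 4031 of 14025 genes called). With each library left out the number ranged from 0 to 3. It was 3 without WT 468-4 (4179 of 13970 genes called), and Eya3 alone was called without Sp3-/- 685-1 (2232 of 13968 genes called). The number was 1 (Six5, with 2917 of 13832 genes called) among the libraries numbered 697. This alternative was chosen after seeing the data, as were those with suffix 3 only and with 697-4 given the suffix 2. Against Sp3+/-, where 3607 of 14130 genes were called, the 2 members called became 3 with DESeq2 (Six4, 0.0332, with 4633 of 14130 genes called). With the suffix as a covariate 1 was called (Six2, with 763 of 14130 genes called). With 697-4 given the suffix 2, 0 members and 0 of all 14130 genes were called. With each library left out, 1 to 3 members and 1490 to 4245 of all genes were called. Without 697-4, Six4 was called in that comparison. Six2 is among the members counted against Sp3+/-, although it was tested only through its Sp3+/- libraries.

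Signs turned as follows. For Sp3-/- against WT, Dach1 was -0.01 by limma-voom, -0.25 with the suffix, -0.56 with 697-4 given the suffix 2, -0.55 among libraries without a suffix and -0.33 to 0.6 with a library left out. Eya4 was 0.05 both among libraries without a suffix and with 697-4 given the suffix 2, and Skil was 0.12 with the suffix, 0.12 among libraries without one and 0.13 with 697-4 given the suffix 2. For Sp3+/- against WT, limma-voom gave 0.06 for Six4 and 0.17 for Eya4, and leaving out libraries gave -0.2 to 0.16 for Six4, -0.33 to 0.02 for Six5, -0.09 to 0.02 for Eya3 and -0.36 to 0.23 for Eya4. For Sp3-/- against Sp3+/-, Six5 was 0.02 and Eya4 0.1 with the suffix, 0.09 and 0.3 with 697-4 given the suffix 2, and leaving out libraries gave -0.6 to 0.27 for Dach1 and -0.31 to 0.24 for Eya1. The cause was not tested.

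With 697-4 given the suffix 2, no listed gene named in the text was called against WT. All genes called against WT numbered 2599 by edgeR, 4297 by DESeq2 and 3033 by limma-voom from the 7 libraries. The fits with the suffix as a covariate used all 11 libraries, and beside 3977 for the 11 libraries without it they called 1329, and 163 with 697-4 given the suffix 2. There were 0 by edgeR among libraries without a suffix and 282 to 4179 with a library left out. No paired analysis was possible because the replicate numbers of the genotypes are only the order of the samples and pair nothing. A block on the first label number, which genotypes share but the sources used here do not explain, was fitted in its place. Against Sp3+/- it left Eya3 called, and also Six2, which was tested only through Sp3+/- libraries in which it was high. Eya2 and Six2 had few reads, which limits their precision.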
